A study of Homo sapiens with 6 samples.

Results

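The HOX cluster genes were examined in MCF10A cells depleted of PAX9. Of the 41656 rows in the table, each 1 gene or assembled transcript unit of Cufflinks, 36 carried a gene symbol of the HOXA, HOXB, HOXC or HOXD clusters, and together they held all 39 human HOX genes. HOXA9 and HOXA10 shared 1 row, as did HOXC4, HOXC5 and HOXC6, and each shared row was counted once. MCF10A is an established line of non-tumorigenic human breast epithelial cells. Cells received 30 nM of non-targeting siRNAs (siNT) or of siRNAs against PAX9 (siPAX9) for 72 hours, with 3 numbered samples in each group that are not said to be separate cultures. The medium, which contained horse serum, epidermal growth factor, hydrocortisone, cholera toxin and insulin, was common to both groups. The table gives 1 FPKM (fragments scaled to transcript length in kilobases and to the mapped fragments of the library) per row and group, and no value per sample. It therefore allows no error between replicates and no test, every difference described here is the difference of 2 pooled values, and the number of reads behind an FPKM is unknown.

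HOX genes encode homeodomain transcription factors that give cells their position along the body axis. They lie in 4 clusters on different chromosomes, and within a cluster the gene order follows the order in which the genes are used, with low-numbered (anterior) genes at one end and high-numbered (posterior) genes at the other. HOX proteins bind DNA together with PBX and MEIS partners, Polycomb complexes keep unused parts of the clusters silent, trithorax complexes keep used parts active, and retinoic acid induces the anterior genes. In the mouse, the paralogs Hoxa9, Hoxb9 and Hoxd9 act together in the development of the mammary gland. PAX9, the depleted factor, belongs to the paired-box family of transcription factors.

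The target, PAX9, was at 2.80 FPKM in siNT against 0.325 in siPAX9, a log2 ratio of siPAX9 over siNT of -3.10, or -1.52 with 1 added to each FPKM. All 8 markers of mammary basal epithelial cells had a mean FPKM of at least 1 and differed less than 2-fold between groups, with KRT5 at 1558 in siNT and 1807 in siPAX9. Other markers were not level. The summed FPKM of the 4 fibroblast markers was 6.31 in siNT and 42.1 in siPAX9, most of it from DCN (5.85 and 37.9), while COL1A2 and PDGFRA stayed at or below 0.0117. COL1A1 was at 0.454 in siNT and 4.13 in siPAX9. The epithelial adhesion genes CDH1 (45.3 and 124) and EPCAM (34.3 and 16.7) also differed, and the 4 luminal markers summed to 7.37 and 10.8. Of the 7 markers of endothelial, immune and neural cells, CDH5, CD3E, PTPRC and SOX10 were at or below 0.0922. PECAM1 was at 2.58 in siNT and 0.495 in siPAX9, CD68 at 3.38 and 3.77, and TUBB3 at 12.9 and 12.1. The part of these differences in the HOX values was not tested.

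All HOXD genes were listed at 0. The 9 rows of the HOXD cluster, on chromosome 2 from 176957532 to 177055635 (hg19), were listed at 0 in both groups, and so were HOXD-AS2, HAGLR, HAGLROS and MIR10B between them. MTX2, which encodes a mitochondrial protein and lies beside the HOXD1 end of the cluster, was at 23.6 in siNT and 23.1 in siPAX9. The remaining rows listed at 0 in both groups were HOXB1, HOXB7, HOXB13 and HOXC12, which made 13 of 36 in all. HOXA13 (0.0108 in siPAX9) was listed at 0 in siNT only, and HOXB5 (0.0118 in siNT) and HOXB8 (0.0806 in siNT) in siPAX9 only. A value of 0 says only that the row is listed at 0, since the reads behind it are unknown.

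A mean FPKM of at least 1 over both groups was reached by 14 of the 36 HOX rows, 7 in HOXA, 2 in HOXB and 5 in HOXC. HOXA5, which is required for lung development, had the highest level, 20.1 in siNT and 21.0 in siPAX9. The row of HOXA9 and HOXA10, posterior genes best known in blood formation and in the uterus, came next with 16.6 and 12.5. The FPKM summed over all HOX rows was 79.3 in siNT and 87.4 in siPAX9. HOXA rows held 69.0% of it in siNT and 62.1% in siPAX9, HOXC rows 23.8% and 34.1%, and HOXB rows 7.20% and 3.79%.

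**Figure D1:**
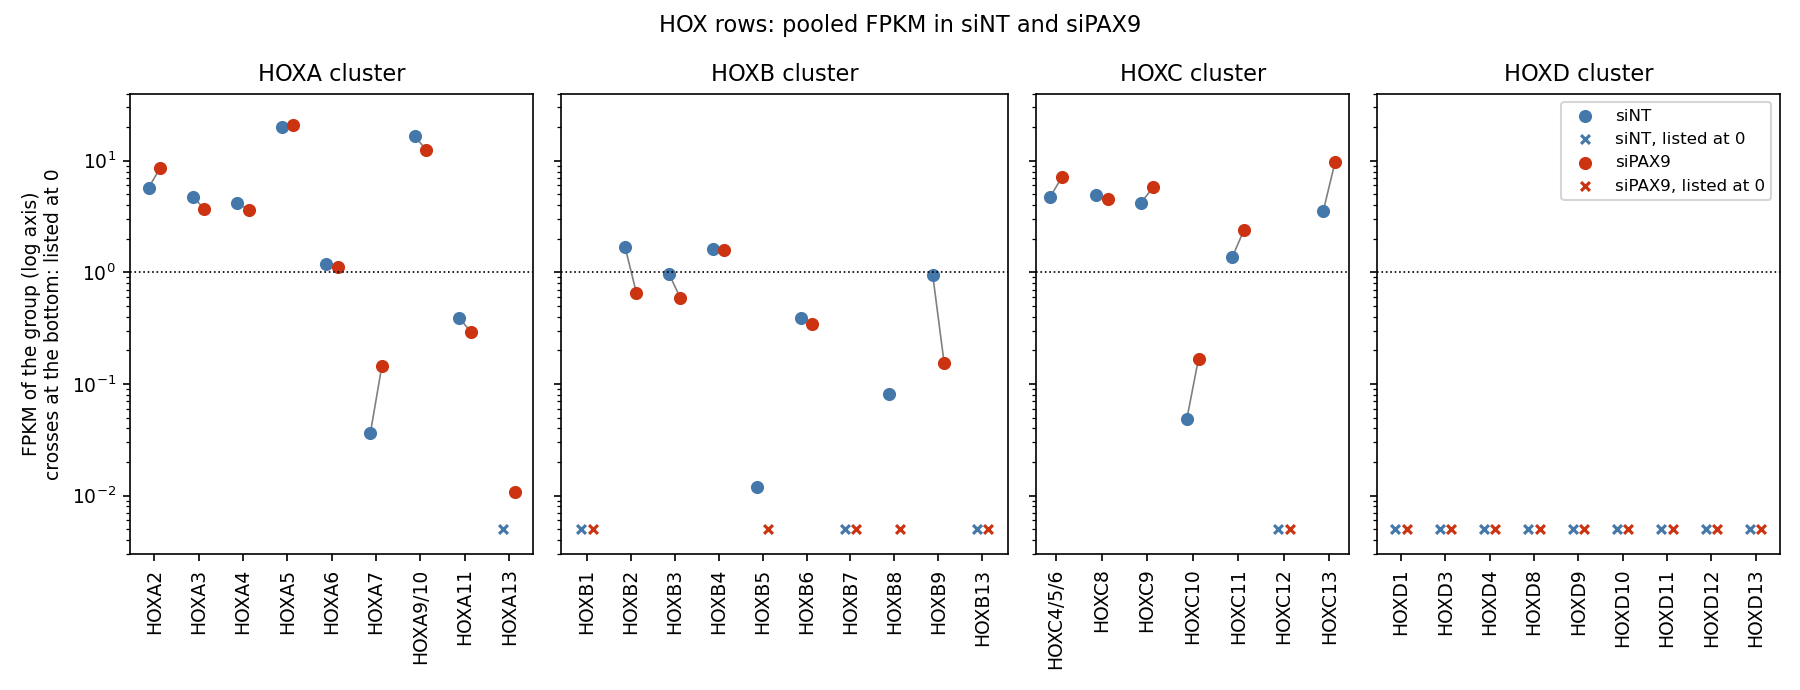
FPKM of each HOX row reported by name on a log axis, with siNT in blue, siPAX9 in red and 1 pooled value per group, ordered by paralog number within each cluster. Crosses mark values listed at 0, and the dotted line marks an FPKM of 1. All 9 HOXD rows are listed at 0, HOXA5 and HOXA9/10 are the highest rows, and HOXC13 stands at 3.53 in siNT and 9.74 in siPAX9.

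A 2-fold or larger difference was the fold threshold of the study's methods, applied here without a q-value. Of the 14 expressed rows, HOXB2 was at least 2-fold lower in siPAX9, HOXC13 was at least 2-fold higher, and 12 lay between. Among all 12475 named rows with a mean FPKM of at least 1 and an FPKM above 0 in both groups, 6.55% were at least 2-fold lower and 6.28% at least 2-fold higher, so the counts for HOX rows were near those of all genes. The median log2 ratio of the 14 rows was 0.012, against -0.068 for those named rows. The 14 rows split evenly, 7 lower and 7 higher in siPAX9, where 55.3% of those named rows were lower and 44.7% higher. By cluster, 3 of 7 expressed HOXA rows, 0 of 2 HOXB rows and 4 of 5 HOXC rows were higher. By place along the cluster, the median log2 ratio was 0.12 for 4 anterior rows (paralogs 1 to 3). It was -0.072 for 6 central rows (4 to 8) and 0.64 for 4 posterior rows (9 to 13). The posterior rows were HOXC9, HOXC11 and HOXC13, all higher, and the row of HOXA9 and HOXA10, which was lower. The posterior median therefore cannot separate place from cluster.

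**Figure D2:**
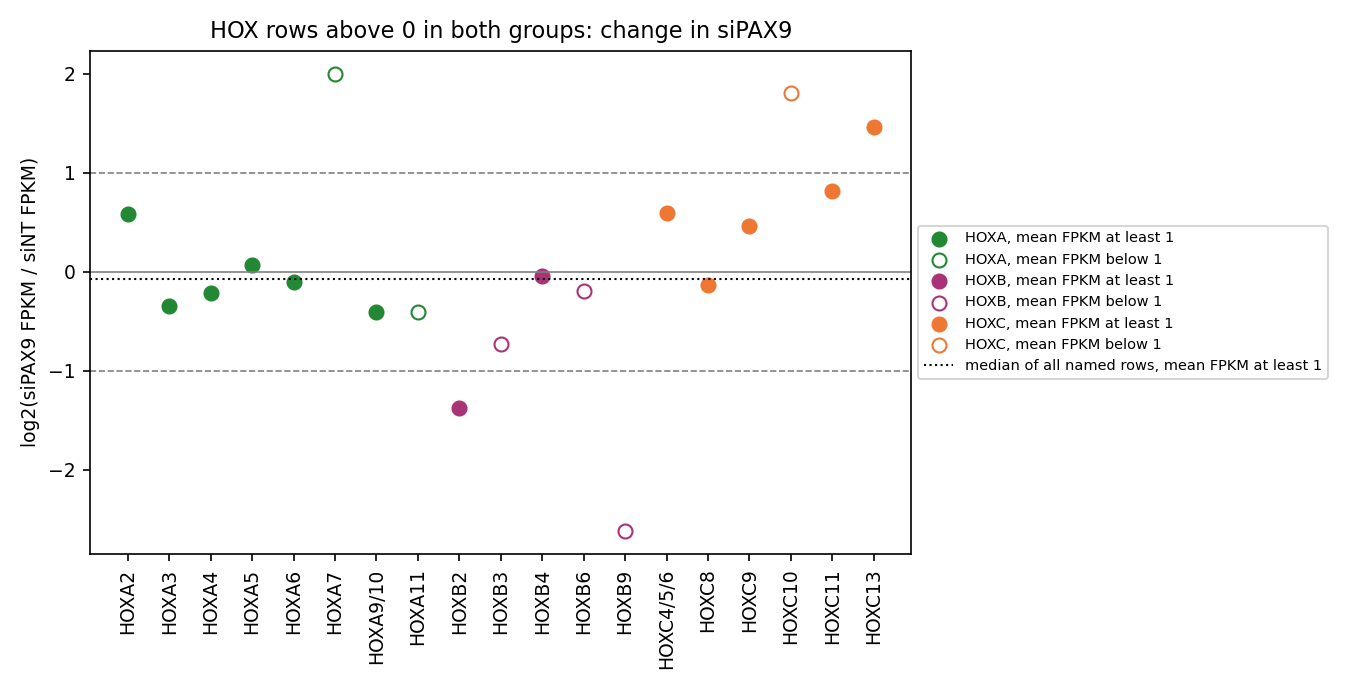
Log2 ratio of siPAX9 FPKM over siNT FPKM for the HOX rows reported by name that were above 0 in both groups, colored by cluster, with filled points for a mean FPKM of at least 1 and open points below it. The dashed lines mark 2-fold differences and the dotted line the median of all named rows with a mean FPKM of at least 1 (-0.068). All 5 HOXB rows lie at or below -0.041, and HOXC13 (1.46) and HOXB2 (-1.38) are the filled points outside the dashed lines.

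Toward the anterior end of the HOXA cluster, HOXA2 (chromosome 7, 27135713 to 27143051) was higher in siPAX9. HOXA2, which sets the identity of the second pharyngeal arch and its cranial neural crest, had 5.73 in siNT and 8.61 in siPAX9, a log2 ratio of 0.59, which did not reach 2-fold. HOTAIRM1, a noncoding RNA listed within the same bounds as HOXA2 and on the other strand, had 8.36 and 6.82, and without strand reads of the pair cannot be told apart where they overlap. A promoter sequence was held in the RefSeq table (GRCh38.p14) for 20 of the 39 HOX genes, among them HOXA2. The 250 bases before its start (minus strand, chr7:27102684-27102933) are shown because they hold an exact TGATTGAT, a composite site for a HOX protein and PBX, read on the opposite strand and set in capitals.
HOXA2: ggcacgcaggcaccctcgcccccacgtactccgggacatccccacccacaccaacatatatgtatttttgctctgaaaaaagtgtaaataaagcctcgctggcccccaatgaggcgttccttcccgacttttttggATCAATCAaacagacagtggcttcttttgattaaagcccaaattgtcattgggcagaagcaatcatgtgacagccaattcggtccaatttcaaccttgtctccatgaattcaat
Of the 26 distinct HOX windows of 300 bases, each from 250 bases before a start to 50 after it, 2 held this sequence, those of HOXA2 and HOXD11, as did 0.486% of the 34943 windows of all genes.

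The expressed HOXA rows from HOXA3 to HOXA10 differed by at most 1.33-fold. HOXA3, a gene of the third pharyngeal arch, the thymus and the parathyroid, had 4.71 in siNT and 3.71 in siPAX9. HOXA4 had 4.18 and 3.60, and HOXA6 had 1.19 and 1.11. The row of HOXA9 and HOXA10 was at 0.754 of its siNT level in siPAX9, the lowest ratio among the expressed HOXA rows, with a log2 ratio of -0.41. Over the 7 expressed HOXA rows, Spearman's rho between the paralog number and the log2 ratio was -0.68, while over the 5 expressed HOXC rows it was 0.70. Over all 14 expressed HOX rows it was 0.25. These are descriptions across neighboring genes of the same pooled libraries, and HOXA3 with HOXA4 and HOXA5 with HOXA6 and HOXA7 share the bounds of 1 locus in the table. Below a mean FPKM of 1, HOXA11 was at 0.392 and 0.295, and HOXA7, a gene of keratinocyte differentiation, was at 0.0362 in siNT and 0.145 in siPAX9.

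Upstream sequences of HOXA4 (minus strand, chr7:27130758-27131007 of GRCh38.p14) and HOXA9 (minus strand, chr7:27165538-27165787) are shown because they hold CACGTG, the E-box bound by MYC and its relatives, in capitals.
HOXA4: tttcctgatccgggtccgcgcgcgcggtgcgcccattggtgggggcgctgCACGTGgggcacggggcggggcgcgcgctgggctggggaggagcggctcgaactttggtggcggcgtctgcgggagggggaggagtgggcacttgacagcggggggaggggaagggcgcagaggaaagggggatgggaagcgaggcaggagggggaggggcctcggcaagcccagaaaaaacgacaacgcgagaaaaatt
HOXA9: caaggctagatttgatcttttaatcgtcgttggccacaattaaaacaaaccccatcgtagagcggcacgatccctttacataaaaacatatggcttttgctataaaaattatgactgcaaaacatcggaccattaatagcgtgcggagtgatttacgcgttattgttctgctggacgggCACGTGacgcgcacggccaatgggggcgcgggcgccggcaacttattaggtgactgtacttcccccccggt
CACGTG was found in 9 of the 26 HOX windows and in 7.23% of all windows. The windows with CACGTG were those of HOXA3, HOXA4, HOXA7, HOXA9, HOXD1, HOXD3, HOXD10, HOXD11 and HOXD13, so they belonged to genes expressed and genes listed at 0 alike. GCGTGACC, a stretch of known paired-domain sites, was in 0 of the 26 HOX windows and in 0.859% of all windows. With so low a share over all windows, 0 of 26 does not set the HOX windows apart. HOX genes without a window, among them HOXB2 and HOXC13, could not be searched. Of the other sequences searched on both strands, the HOX and PBX variants TGATTTAT (0.844% of all windows) and TGATTAAT (0.667%) were in 0 HOX windows. TTGACC, which read on the other strand overlaps AGGTCA by its GGTCA, was in 2 windows of HOXA3 and 7.60% of all windows. A pair of AGGTCA separated by 5 bases, as in retinoic acid response elements, was in 0 HOX windows and 2 of all windows. The median HOX window held 22.5 CpG dinucleotides, against 14 for all windows.

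Between HOXA4 and HOXA5 the table listed 6 rows without a symbol, at chromosome 7 from 27170997 to 27178009, and all 6 were at least 2-fold higher in siPAX9. Their FPKM ranged from 0.136 to 0.726 in siNT and from 1.10 to 3.24 in siPAX9. Their log2 ratios ran from 1.81 to 4.58 with a median of 2.55. With 1 added to each FPKM they ran from 0.67 to 1.90, and 3 of the 6 stayed at least 2-fold higher, beside 10.8% of all rows without a symbol that had a mean FPKM of at least 0.5. Rows without a symbol were often higher in siPAX9 across the genome, as 25% of the 13303 such rows with a mean FPKM of at least 0.5 were at least 2-fold higher and 11.9% at least 2-fold lower. In the GENCODE annotation of GRCh37, 5 of the 6 rows had 0 bases in an exon and lay in introns of long isoforms of HOXA3 and of the antisense gene HOXA-AS3. The remaining row, 1392 bases long, had 15.9% of its bases in exons of HOXA-AS2. The named rows on both sides, HOXA4 and HOXA5, differed by 1.16-fold and 1.05-fold, and the rows HOXA-AS2 (0.614 in siNT and 0.421 in siPAX9) and HOXA-AS3 (0.0480 and 0.0803) were below a mean FPKM of 1. The row with the highest ratio was at 0.136 FPKM in siNT against 3.24 in siPAX9.

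At the posterior end of the HOXA cluster, noncoding rows in the locus of HOXA9 and HOXA10 (27202057 to 27219880) were lower in siPAX9. HOXA10-AS, transcribed antisense to HOXA10 and HOXA9, had 3.996 in siNT and 1.09 in siPAX9, 3.66-fold lower. The row of MIR196B, the hairpin of miR-196b, had 84.3 in siNT and was listed at 0 in siPAX9, so no fold is given. Because FPKM divides by length, a few reads on a short hairpin can make a large value. The flag for enough reads was OK for this row, but its number of reads is unknown. The row measures neither arm of the mature miRNA. MIR196B lies on the same strand as HOXA9 and HOXA10, so their reads cannot be told apart where they overlap. HOXA10-AS lies on the other strand, and the library is not stated to keep strand. Its reads therefore cannot be told apart from theirs where they overlap either. The miR-196 family, encoded within the HOX clusters, is known for cutting HOXB8 mRNA. Its mature sequences (RefSeq, GRCh38.p14) are shown with the seed, bases 2 to 8, in capitals, since the other members of the family, MIR196A1 in HOXB and MIR196A2 in HOXC, were listed at 0 in both groups.
miR-196b-5p: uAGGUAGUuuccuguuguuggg
miR-196a-5p: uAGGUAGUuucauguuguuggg
The 2 share the seed and 21 of 22 bases, and differ at position 12 from the 5′ end. MIR10A, MIR615 and MIR3185 were also listed at 0 in both groups. Of 25 noncoding rows listed for the clusters and their borders, 5 had a mean FPKM of at least 1 and 12 were at 0 in both groups, 1 of which, MIR3186, lies elsewhere on chromosome 17. Of the 4 that were expressed and above 0 in both, HOXA10-AS was at least 2-fold lower and HOXC13-AS at least 2-fold higher, beside 6.55% and 6.28% of expressed named rows.

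In the HOXB cluster (chromosome 17, 46606807 to 46806111), all 5 rows above 0 in both groups were lower in siPAX9, where 49.3% of all named rows above 0 in both groups were lower. HOXB2, a hindbrain gene, was at 1.69 FPKM in siNT against 0.650 in siPAX9, so it reached a mean of 1 only through siNT. It was 2.60-fold lower, but its log2 ratio of -1.38 became -0.70 with 1 added to each FPKM. HOXB9 had 0.951 and 0.155, 6.13-fold lower at a mean below 1, and its log2 ratio went from -2.62 to -0.76 with 1 added. HOXB3, listed within the same bounds as HOXB2, had 0.970 and 0.586, and the antisense HOXB-AS1 of that locus had 0.848 and 0.687. HOXB6 had 0.389 and 0.341. HOXB4, which expands blood stem cells when overexpressed, had 1.63 in siNT and 1.58 in siPAX9, and its log2 ratio of -0.041 became positive (0.027) once the ratios were centered on the median of named rows with a mean FPKM of at least 1. Between HOXB9 and HOXB13, 1 row without a symbol (3267 in siNT and 1553 in siPAX9) lay over the ribosomal protein pseudogene RPL9P28.

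The HOXC cluster (chromosome 12, 54329112 to 54449814) held the highest ratio of an expressed HOX row. HOXC13, which drives hair and nail keratin genes, was at 3.53 FPKM in siNT against 9.74 in siPAX9 and was 2.76-fold higher, with a log2 ratio of 1.46, or 1.24 with 1 added to each FPKM. The noncoding HOXC13-AS, from the same locus on the other strand, had 1.28 in siNT and 8.30 in siPAX9 and was 6.48-fold higher. HOXC11 had 1.36 and 2.41, 1.76-fold higher, and HOTAIR, a noncoding RNA opposite HOXC11 that is known to bind Polycomb proteins, had 0.517 and 1.09. HOXC10, at 0.0481 and 0.168, and HOXC-AS3, at 0 and 0.307, were low in both groups. In each of these pairs the HOXC gene and its antisense row lie within the same bounds, and without strand their reads cannot be told apart where they overlap.

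Toward the anterior end, the HOXC differences were smaller. HOXC9 had 4.21 in siNT and 5.78 in siPAX9, HOXC8 had 4.97 and 4.54, and HOXC-AS1, between HOXC10 and HOXC9, had 3.90 and 2.37. The shared row of HOXC4, HOXC5 and HOXC6 had 4.74 and 7.15, 1.51-fold higher. HOXC4 and HOXC5 have the same window in the RefSeq promoter table (plus strand, chr12:54016638-54016887 of GRCh38.p14), which is shown because values of the separate genes cannot be had from a shared row, and it holds none of the motifs searched.
HOXC4 and HOXC5: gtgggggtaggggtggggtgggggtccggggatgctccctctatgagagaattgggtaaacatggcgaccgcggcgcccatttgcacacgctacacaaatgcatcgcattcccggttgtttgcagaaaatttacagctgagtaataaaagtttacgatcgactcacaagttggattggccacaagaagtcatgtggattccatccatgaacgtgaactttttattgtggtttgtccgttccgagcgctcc

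**Figure D3:**
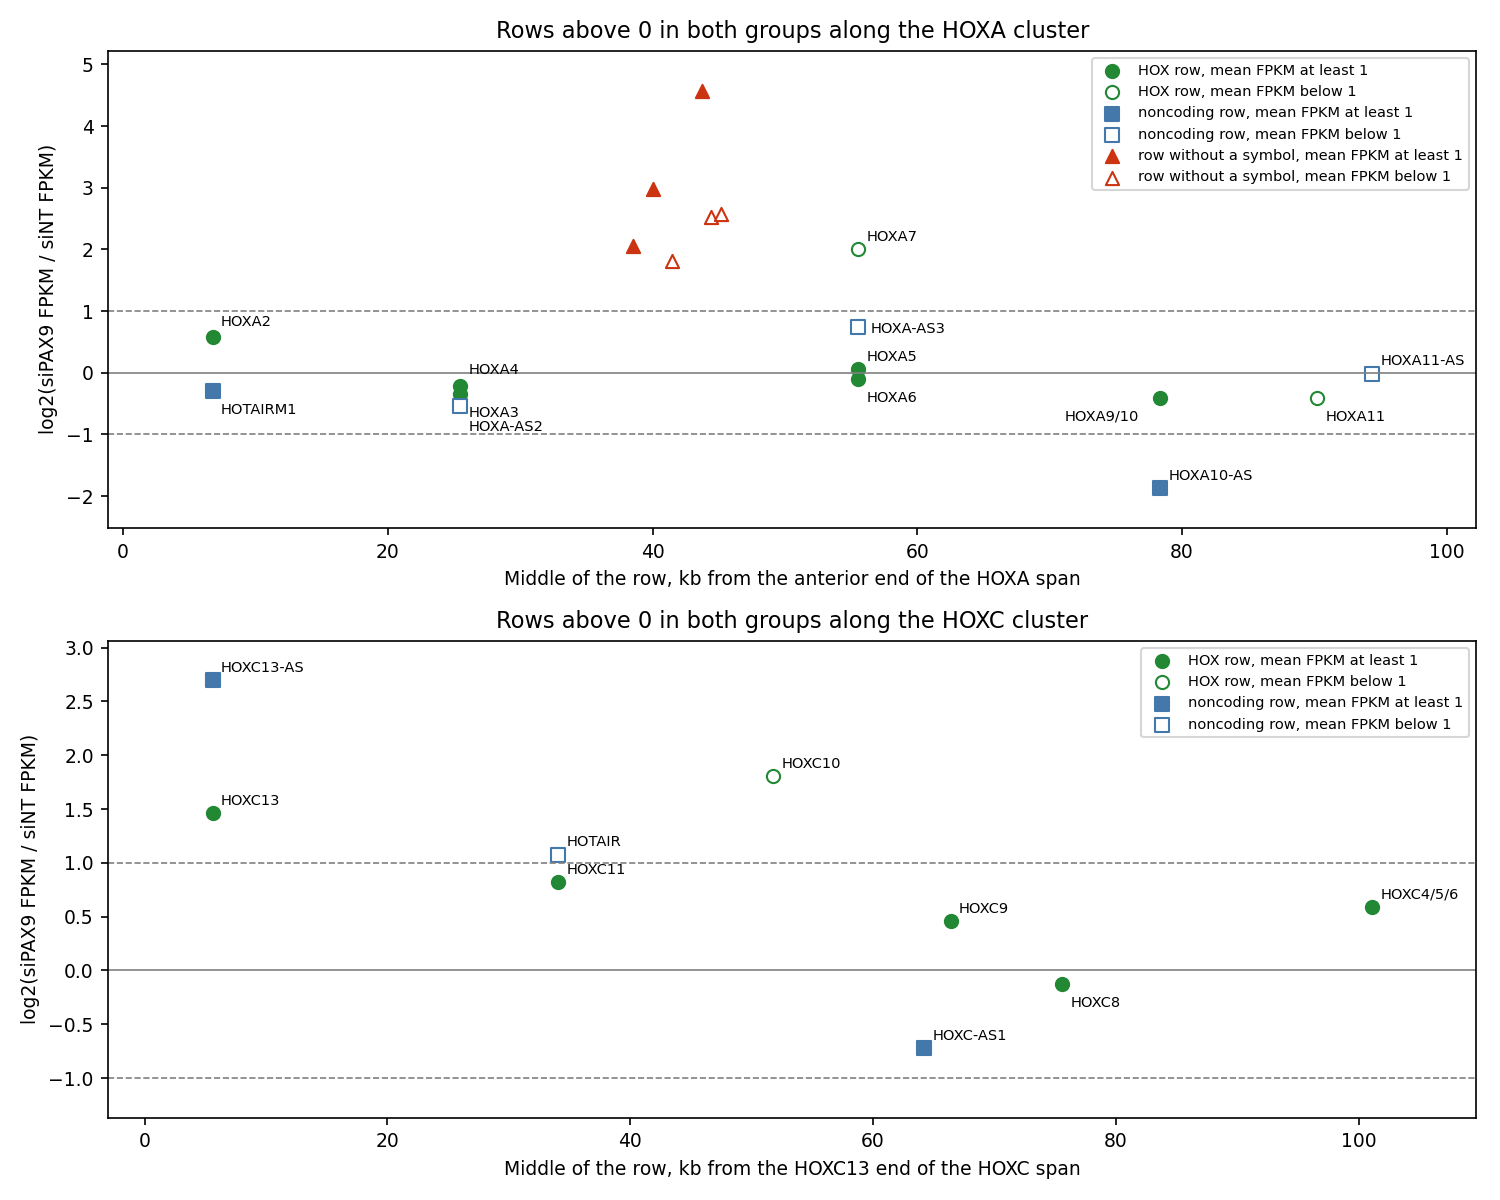
Log2 ratio of siPAX9 FPKM over siNT FPKM against the middle of each row in kb, for rows reported here and above 0 in both groups in the HOXA (top) and HOXC (bottom) clusters; rows that share the bounds of a locus share a position. Open symbols have a mean FPKM below 1 and dashed lines mark 2-fold differences. The 6 rows without a symbol (triangles) lie between 1.81 and 4.58, above every HOXA row except HOXA7 at 2.00, and HOXC13-AS (2.70) lies above HOXC13 (1.46).

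Among genes that flank the clusters, all 5 differences of 2-fold or more were toward a lower FPKM in siPAX9, where 6.55% of expressed named rows were at least 2-fold lower. Expressed were 4 flanking rows of HOXA, 3 of HOXB, 8 of HOXC and 3 of HOXD. With 1 added to each FPKM, CBX1 (-0.99 on the log2 scale) and NFE2 (-0.77) fell short of 2-fold. SNX10, beyond the anterior end of the HOXA cluster, had 7.12 in siNT and 1.66 in siPAX9, while HIBADH beyond the other end had 30.2 and 31.7 and TAX1BP1 had 23.8 and 33.1. Near HOXC, where 3 of 8 flanking rows were at least 2-fold lower, HNRNPA1, in a row with its pseudogene HNRNPA1P10, had 255 and 97.4, CBX5, in a row with a microRNA gene, had 26.1 and 10.99, and NFE2 had 2.99 and 1.33. CBX1, near HOXB, had 35.9 and 17.6, and CALCOCO2, on the other side of the HOXB cluster, had 21.2 and 20.4. Of the 3 expressed HOXD flanks, 0 differed by 2-fold, with ATP5G3 at 84.0 and 72.0 and HNRNPA3 at 58.2 and 34.5.

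Of the 9 rows of DNA-binding partners of HOX proteins, 6 were expressed and 0 of these differed by 2-fold, where 6.55% of expressed named rows were at least 2-fold lower and 6.28% at least 2-fold higher. PBX2, in a row shared with AGER, had 20.3 in siNT and 18.3 in siPAX9, and PBX3 had 10.1 and 8.30. The median log2 ratio of the 6 rows was -0.20.

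The complexes that hold HOX clusters silent or active had 1 row each that differed by 2-fold, a share no higher than that of expressed named rows (6.55% at least 2-fold lower and 6.28% at least 2-fold higher). All 27 Polycomb rows were expressed, with a median log2 ratio of -0.27, and PHF19, which guides the Polycomb complex PRC2 to chromatin, was 3.42-fold lower at 26.6 in siNT and 7.79 in siPAX9. The catalytic subunit EZH2 had 8.67 and 4.71 and stayed within 2-fold. Among the 16 expressed trithorax and H3K27 demethylase rows, with a median of -0.089, PSIP1, which tethers the MLL complex to chromatin, was 3.29-fold lower at 33.8 and 10.3. KMT2A, the MLL gene itself, had 8.73 and 6.96. The most abundant Polycomb rows, PHC2 (80.4 and 63.8) and the row that BMI1 shares with COMMD3 (53.5 and 39.002), and the most abundant trithorax rows, DPY30 (47.1 and 32.5) and AFF4 (30.3 and 50.5), stayed within 2-fold.

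Genes of the retinoic acid pathway, a known inducer of anterior HOX genes, included the highest ratios of these lists. Of 10 expressed rows, 4 were at least 2-fold higher in siPAX9 and 0 at least 2-fold lower, with a median log2 ratio of 0.41, where 6.28% of expressed named rows were at least 2-fold higher and 6.55% at least 2-fold lower. STRA6, the cellular receptor for retinol uptake, had 0.182 in siNT and 6.11 in siPAX9. It reached a mean FPKM of 1 only through siPAX9, the group in which it was high. CRABP2, which carries retinoic acid to the nucleus, had 1.80 and 40.9. ALDH1A3, which makes retinoic acid from retinal, had 9.48 and 88.6. DHRS3, which reduces retinal back to retinol, had 22.1 and 73.3. The receptors were near level, with RARG at 22.5 and 20.2 and RXRA, in a row with MIR4669, at 45.3 and 40.3. Of the 4 expressed anterior HOX rows, 2 were higher in siPAX9, HOXA2 among them, and 2, HOXA3 and HOXB2, were lower. A relation between the pathway genes and the HOX rows was not tested.

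In the last list, of other homeobox genes and cluster regulators, HMGB1, an abundant chromatin protein, had 55.3 in siNT and 31.9 in siPAX9. The caudal genes CDX1, CDX2 and CDX4, upstream regulators of posterior HOX genes, were listed at 0 in both groups.

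**Figure D4:**
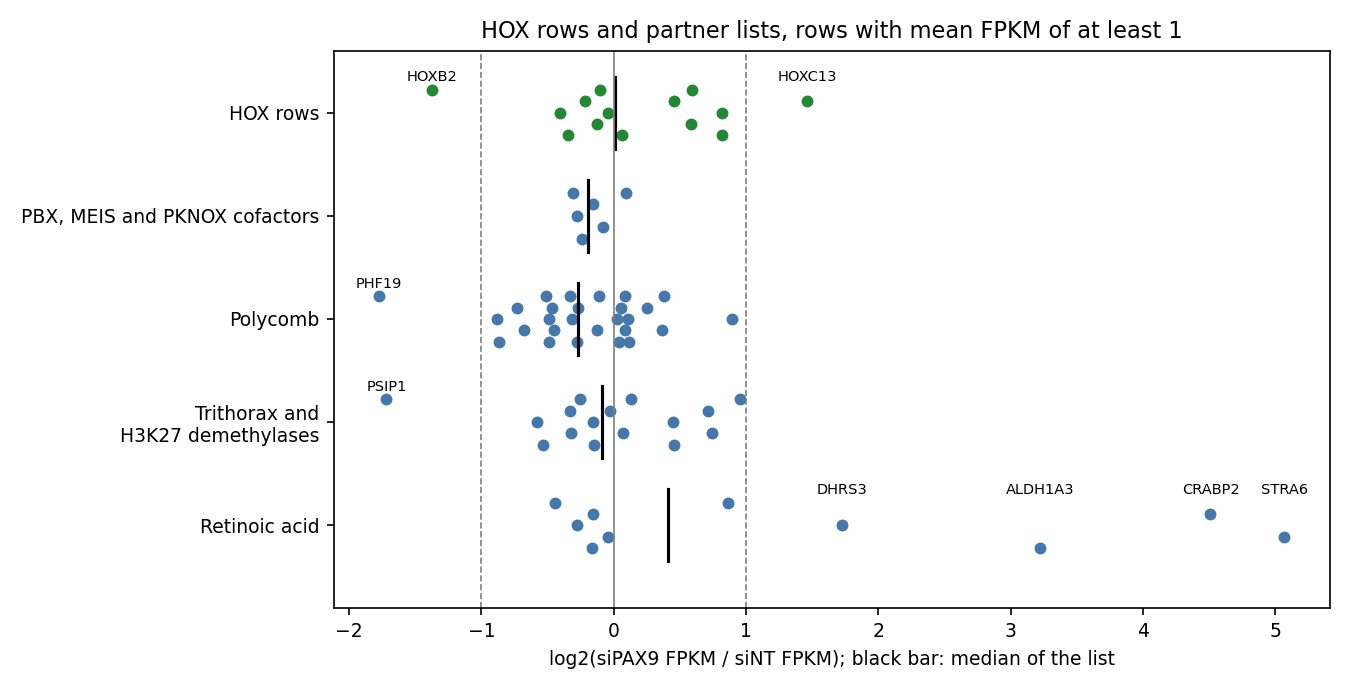
Log2 ratio of siPAX9 FPKM over siNT FPKM for expressed rows of the HOX genes and of 4 lists of partners and regulators, 1 point per row, with points spread vertically only to separate them. Black bars mark medians, and rows that differ by 2-fold or more are named. The HOX median is 0.012, the cofactors lie within 2-fold, and 4 retinoic acid rows lie above 1.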

How the data were processed

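RNA-seq of 2 groups of 3 samples was analyzed. Single-end reads of poly(A)+ RNA were mapped by the authors to hg19 using Bowtie 2, and loci were quantified using Cufflinks, both within Partek Flow. The authors deposited 1 FPKM per group and row, pooled over samples. Normalization between libraries and depth per row are not given in the sources used here. The table also holds the authors' fold change, test statistic, p-value, q-value and significance call, which were not used. Its status column, a flag for enough reads, was used in 1 alternative.

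HOX rows were found by symbol, and the row with the highest mean FPKM was kept per symbol. The log2 ratio of siPAX9 over siNT was computed without a pseudocount for rows with both FPKM above 0. Rows with a mean FPKM of at least 1 were called expressed. The members and lists were chosen with earlier results of these data known. Named were all HOX rows with an FPKM of at least 0.1, PAX9 and, from each other list, up to 6 expressed rows that differed 2-fold or more and the 2 most abundant. EZH2, KMT2A, the receptors, the HOXD flanks, markers and other lower rows were named after their values were seen. Row starts were 1 less than the GENCODE gene start for 4950 of 21775 rows compared and equal to it for 519, so 1 was added to starts. All 39 HOX genes overlapped their gene in GENCODE release 44 on GRCh37. Alternatives varied the added constant, the filter, the fold, centering, shared rows and the status. The fold count was tested on simulated data. Python 3.11.15, numpy 2.4.6, pandas 2.3.3 and matplotlib 3.10.9 were used. Some items are not reported here, while counts and medians include all rows.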

Additional observations from a re-analysis of the deposited data

How the results depend on the processing

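Of the 14 expressed HOX rows, 1 was at least 2-fold lower and 1 at least 2-fold higher in siPAX9. The count of lower rows was 0 with 1 added to each FPKM, 0 with a mean FPKM of at least 5, 2 with a mean of at least 0.1, 2 with no filter, and 0 at a fold of 4. The count of higher rows was 2 with a mean of at least 0.1, 3 with no filter, 5 at a fold of 1.5 and 0 at a fold of 4. The median log2 ratio, 0.012, was 0.018 with 1 added, 0.59 with a mean of at least 5 (5 rows), -0.10 with a mean of at least 0.1, -0.072 with no filter and 0.080 after centering on the median of named rows with a mean FPKM of at least 1. Adding 0.1, summing rows of a symbol, leaving out shared rows or keeping rows with enough reads left both counts at 1 and the median between 0.012 and 0.013. Of the 14 single ratios, HOXB2 fell short of 2-fold with 1 added, and HOXB4 changed sign after centering. The cause of these shifts was not tested, apart from the smaller or larger number of rows that a filter leaves. With 1 added, a setting chosen for these rows after seeing the data, 3 of 6 rows without a symbol in HOXA, 2 of 3 HOXC flanks and 0 of 1 HOXB flank kept a 2-fold difference, and the 2-fold counts of the noncoding, partner and regulator lists were the same. No paired analysis was possible because the deposited table holds 1 pooled value per group, and leaving out single replicates was not run for the same reason. Read counts per row are unknown, so the precision of a ratio is unknown too.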

Other observations

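Beyond the HOXC4 end of the HOXC cluster, 13 rows without a symbol lay between LOC400043 and SMUG1 (chromosome 12, 54532399 to 54570225, hg19), a set singled out after its values were seen. Of these, 12 were higher in siPAX9 and 10 at least 2-fold higher, with a median log2 ratio of 1.28. With 1 added to each FPKM, 0 of the 13 were at least 2-fold higher and the median was 0.52. Their FPKM lay between 0.154 and 1.43 in siNT and between 0.747 and 1.52 in siPAX9. SMUG1, a DNA glycosylase gene, had 14.3 in siNT and 18.4 in siPAX9. Of all rows without a symbol with a mean FPKM of at least 0.5, 25% were at least 2-fold higher.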
